A study of Rattus norvegicus with 9 samples.

Results

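The synapse genes described here are 37 genes of the presynaptic vesicle, of neurotransmitter release and of the synaptic scaffold, chosen as a list of gene symbols. A transcript cluster is the set of array probes that reports 1 transcript locus. Single-symbol clusters were found for 35 of the 37 genes, and Stx1a had 2 of them, which gave 36 clusters of 36685 on the array. Unc13a, the priming factor of vesicles, and Homer1, a postsynaptic scaffold protein, had no such cluster and were not analysed here. A filter on signal level, described with the processing, kept 35 of the 36 clusters for testing, that is 34 genes, and left out Syt2.

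RNA came from retinal ganglion cells that had been purified from Sprague Dawley rats on postnatal day 4 by immunopanning, which catches cells on antibody-coated dishes. All cells were electroporated with pMAX-GFP, a plasmid for green fluorescent protein, together with mCherry as the control, wild-type Set-β or myr-Set-β. Set is a nuclear protein that carries histones, and the myr prefix names a lipid tag that brings proteins to membranes. Green cells were sorted the next day, kept on laminin, and extracted 3 days after transfection, with 3 arrays per group labelled as biological replicates. Nothing in the labels says that replicates came from separate litters or cultures, so that each p-value reflects only how far these arrays scatter, and that scatter may be technical. The promoter driving the constructs was not given in the sources used here. No cluster carries the symbol Set, so the transfected gene was not checked.

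At a synapse, neurotransmitter is packed into vesicles that dock at the active zone of the presynaptic membrane. SNARE proteins of the vesicle and of the plasma membrane zip together, synaptotagmins sense calcium and trigger fusion, and NSF with its SNAP adaptors takes the spent SNARE complexes apart. Neurexins and neuroligins bridge the cleft, and postsynaptic scaffolds hold the receptors. Ganglion cells release glutamate onto brain targets, and cultured neurons transcribe these genes before they have synapses.

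Promoters are shown for 4 genes from different steps of this cycle to which the results return: the calcium sensor Syt1, the ATPase Nsf, gephyrin (Gphn) and synapsin 1 (Syn1). The RefSeq table of assembly GRCr8 held a window of 250 bases before to 50 after the transcription start for 29 of the 37 genes. It held none for Snap25, Snap91, Rims2, Nrxn2, Nrxn3, Dlg3, Shank1 and Shank2. The windows are chr7:46244164-46244463 on the minus strand for Syt1, chr10:89357334-89357633 on the minus strand for Nsf, chr6:102687403-102687702 on the plus strand for Gphn and chrX:3725495-3725794 on the plus strand for Syn1. Each is printed 5′ to 3′ in the direction of transcription. Capitals mark 4 motifs searched on both strands: GGGCGG, the GC box bound by Sp1; TGACGTCA, the cyclic AMP response element; CAGCACC, part of the RE1 element of the neuronal repressor REST; and CACGTG, the E-box. None of these matches overlapped a match to another motif in the 4 windows.
Syt1: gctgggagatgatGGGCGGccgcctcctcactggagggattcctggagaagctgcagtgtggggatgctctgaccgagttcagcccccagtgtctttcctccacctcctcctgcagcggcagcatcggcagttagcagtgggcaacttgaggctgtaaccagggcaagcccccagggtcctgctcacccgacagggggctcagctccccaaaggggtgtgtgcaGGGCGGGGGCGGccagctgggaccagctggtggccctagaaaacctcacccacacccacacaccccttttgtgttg
Nsf: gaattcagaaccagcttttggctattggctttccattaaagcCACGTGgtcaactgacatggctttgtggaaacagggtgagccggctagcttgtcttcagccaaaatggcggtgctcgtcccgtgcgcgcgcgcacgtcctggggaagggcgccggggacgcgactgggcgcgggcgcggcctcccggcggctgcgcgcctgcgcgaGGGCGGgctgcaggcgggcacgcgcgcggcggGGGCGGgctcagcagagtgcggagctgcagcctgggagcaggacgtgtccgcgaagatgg
Gphn: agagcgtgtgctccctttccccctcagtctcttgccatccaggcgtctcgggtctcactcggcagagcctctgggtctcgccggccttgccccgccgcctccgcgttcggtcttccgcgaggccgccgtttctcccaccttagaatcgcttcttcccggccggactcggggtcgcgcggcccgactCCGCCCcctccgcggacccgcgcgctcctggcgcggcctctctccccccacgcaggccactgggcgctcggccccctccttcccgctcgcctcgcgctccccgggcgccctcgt
Syn1: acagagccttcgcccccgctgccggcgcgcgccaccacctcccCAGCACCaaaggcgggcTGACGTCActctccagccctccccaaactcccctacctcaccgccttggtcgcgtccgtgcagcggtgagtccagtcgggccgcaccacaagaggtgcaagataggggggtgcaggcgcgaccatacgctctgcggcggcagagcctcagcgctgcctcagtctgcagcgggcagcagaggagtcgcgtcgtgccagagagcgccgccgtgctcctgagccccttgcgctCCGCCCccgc

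The Syt1 window held 3 GC boxes, with first bases 237, 26 and 20 bases before the start, and Nsf held 2, at 42 and 10 bases before it, and an E-box at 208. Gphn held 1 GC box on the opposite strand, 64 bases before the start. In Syn1 the response element lay 190 bases before the start, CAGCACC 207 bases before it, and a GC box 41 bases after it. The GC box was found in 19 of the 29 windows (65.5%), against 34.9% of all 27457 windows in the table. CAGCACC was found in 7 windows (24.1% against 6.91%), those of Bsn, Nlgn2, Sv2b, Syn1, Syp, Syt4 and Unc13a. The response element was found in Syn1 and Vamp1 (6.9% against 1.91%), and the E-box in Nsf (3.45% against 6.65%). A match describes letters in a window and is no evidence of binding.

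Before any comparison, 2 arrays stood apart in these genes. Replicate 1 of mCherry was the highest of the 9 arrays in 31 of 35 synaptic clusters, against 29.7% of all 18343 clusters tested. Replicate 1 of myr-Set-β was the lowest in 22 of 35, against 36.9% of all clusters tested. These shares of all clusters are not matched for signal level. Over all clusters, the log2 span from the 10th to the 90th percentile was widest in mCherry replicate 1, at 4.54. It was narrowest in myr-Set-β replicate 1, at 3.82, and 4.12 to 4.53 on the rest. The part of this array-wide spread in the synaptic values was not tested. The median log2 intensity of the 35 clusters was 8.71, 7.71 and 7.90 in mCherry replicates 1, 2 and 3, 7.76, 7.69 and 7.69 in wild-type Set-β, and 7.55, 7.61 and 8.05 in myr-Set-β. As the median rank among all clusters of the array, which does not depend on scaling, this was percentile 87.8 in mCherry replicate 1 and 76.4 to 80.9 on the other 8 arrays. The mCherry array of replicate 1 thus lay above the rest by rank too, whereas the myr-Set-β array of replicate 1, at percentile 79.2, did not lie below them.

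**Figure D1:**
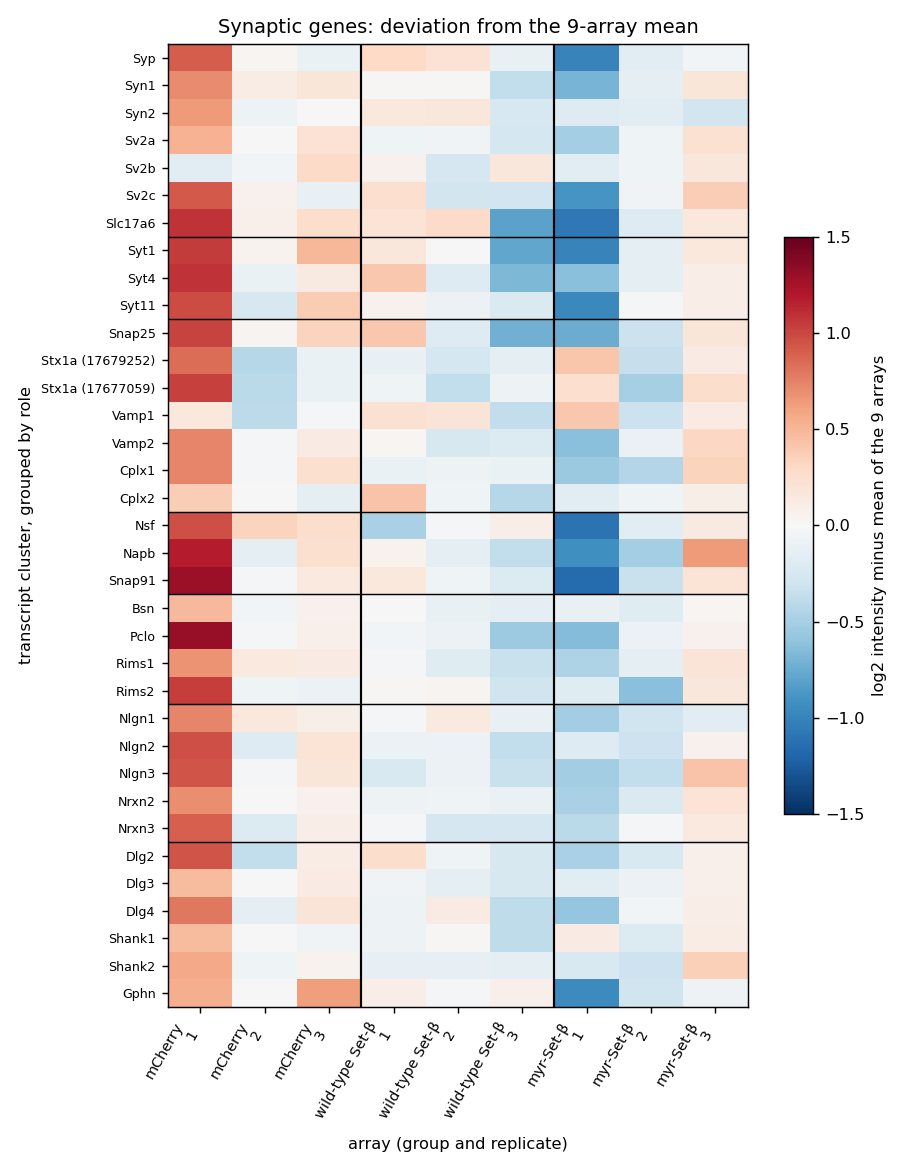
Heat map of the 35 synaptic clusters (rows, ordered by role, with lines between roles) on the 9 arrays (columns). Colour gives log2 intensity minus the mean of the 9 arrays for that cluster, red above and blue below. The mCherry replicate 1 column is red in nearly all rows and is the highest array in 31 of them, and the myr-Set-β replicate 1 column is the lowest in 22.

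Signal of ganglion cell markers and of markers of other cell types also differed between replicates. All 17 ganglion cell markers fixed for this purpose were past the level filter, among them the transcription factor Pou4f2 at 8.53, 7.85 and 8.13 in mCherry, 7.76, 7.85 and 7.66 in wild-type Set-β, and 7.54, 7.67 and 7.93 in myr-Set-β. Their summed linear intensity ran from 12510 to 21080 in mCherry, 8234 to 13730 in wild-type Set-β and 8298 to 15020 in myr-Set-β, with the top of each range in mCherry replicate 1, wild-type replicate 1 and myr-Set-β replicate 3. Of 14 listed endothelial, mural and fibroblast markers, 11 were on the array and 7 past the filter. Their sum was 1054, 1106 and 1189 on the 3 replicate 1 arrays and 5124 to 8408 on the other 6. Tagln, a smooth muscle gene that made up most of the high sums, had 6.70 to 7.93 on the former and 11.89 to 12.62 on the latter. Pdgfrb, Cspg4, Col1a2 and Rgs5 were also lower on each replicate 1 array than on any other. Col1a1 overlapped between them, and so did the endothelial gene Cdh5, at 6.66 to 6.99 against 6.53 to 6.80. Of the 13 glial markers 10 were on the array and 4 past the filter. Their sums were 986.2 to 1272 on the replicate 1 arrays and 3132 to 5417 on the others. Vim made up most of the high sums, at 11.15 to 12.13 on those arrays, and was lower on each replicate 1 array. The other glial markers, Apoe, Mbp and Aqp4 among them, overlapped between the replicate 1 arrays and the rest. The contrast in glial sums thus rested mainly on Vim.

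Microglia and macrophage markers, 14 on the array and 10 past the filter, summed to 1897 to 2906 in mCherry, 1926 to 3216 in wild-type Set-β and 1951 to 3298 in myr-Set-β, again with replicate 1 the lowest array of each group. Amacrine and horizontal cell markers, 13 on the array and 7 past the filter, summed to 1643 to 2226, 1361 to 1616 and 1374 to 1783 in the same order. Photoreceptor and bipolar markers, 11 on the array and 2 past the filter, summed to 849.8 to 986.6, 935.1 to 958.7 and 828.6 to 896. Array signal has no true zero. Against the median of 1198 odorant receptor clusters (log2 5.34 to 5.93 by array), used as a mark of background, Lhx1, Dcn and Lum were below it on all 9 arrays. The part of these lists in the synaptic values was not tested. In such bulk samples, fewer cells of a type and less RNA per cell cannot be told apart.

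**Figure D2:**
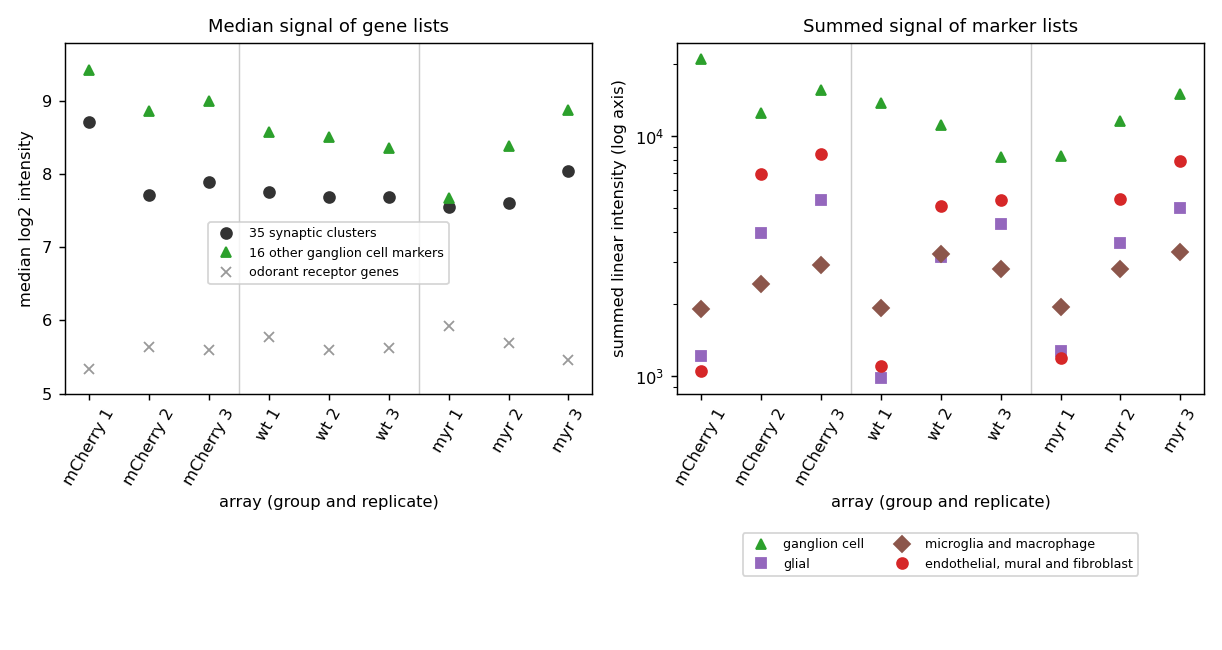
Left, median log2 intensity of the 35 synaptic clusters, of 16 ganglion cell markers that are not synaptic members and of odorant receptor genes on each array. Right, summed linear intensity of marker lists on a log axis. The synaptic median peaks at 8.71 in mCherry replicate 1, and the endothelial, mural and fibroblast sum is 1054 to 1189 on the replicate 1 arrays and at least 5124 on the others.

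Ganglion cell markers that are no members had lower medians in the Set-β groups as well. The median of the 16 ganglion cell markers outside the list was 9.09 ± 0.29 (SD, n = 3) in mCherry, 8.48 ± 0.11 in wild-type Set-β and 8.31 ± 0.61 in myr-Set-β. The median of the synaptic clusters was 8.11 ± 0.53, 7.71 ± 0.04 and 7.73 ± 0.28. Taken within each array, the gap of the synaptic median to the marker median was -0.98 ± 0.24, -0.77 ± 0.09 and -0.58 ± 0.39, so that the gap was no wider in either Set-β group than in mCherry. This gap takes no account of signal level. The markers were the brighter list, and brighter clusters tended to differ more from mCherry across the array, as given below. In myr-Set-β replicate 1 the gap was -0.12, where the ganglion cell median was 7.67. No synaptic cluster past the filter lay below the odorant receptor median, with the exception of Napb in myr-Set-β replicate 1. Below the 75th percentile of odorant receptors (6.20 to 6.89) lay Cplx1 and Shank1 on 4 arrays each, Napb on 3, Shank2 on 2, and Rims2, Nlgn1, Nrxn3 and Gphn on 1 each, so that low values of these 8 genes may be close to background. Cplx1, with a mean of 6.67 over the 9 arrays, passed the level filter at 6.65 only through mCherry, at 6.98. Its means in wild-type and myr-Set-β, 6.57 and 6.45, were below the filter, so that a lower value there was built in. Shank1 in wild-type Set-β (6.61) and Napb in myr-Set-β (6.57) also had means below the filter.

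The first comparison asks how wild-type Set-β changes the transcripts of these neurons. For 34 of 35 synaptic clusters the mean was lower in wild-type Set-β than in mCherry, Vamp1 being the exception, where 65.5% of all clusters tested and 77.2% of the 10714 tested clusters with 1 symbol were lower. None passed limma's adjusted p of 0.05, as was so for all clusters (0%), and none reached an unadjusted p under 0.05, where 7.13% of all clusters did so on the lower side and 3.04% on the higher. The arrays of both groups did not overlap in 10 of 35, all of them lower in wild-type Set-β, against 26.4% of all clusters and 34.7% of those with 1 symbol, and in 0 on the higher side, against 7.31%. Cplx1 is among the 34 and among the 10, although it passed the level filter through mCherry only. The median log2 difference was -0.39, with single clusters from -0.73 to 0.10, beside -0.18 for all clusters tested and -0.29 for those with 1 symbol. Without mCherry replicate 1 the median was -0.15, beside -0.13 for all clusters, and 28 of 35 were lower. The distance of the synaptic median from that of all clusters thus rested mainly on this array in wild-type Set-β too. When replicate 1 was left out of all 3 groups the synaptic median was -0.20, beside -0.15 for all clusters. In that fit 31 were lower, against 66.2% of all clusters. The count at an unadjusted p under 0.05 was 5 without mCherry replicate 2, where 15.2% of all clusters were called in either direction. It was 2 without myr-Set-β replicate 1, which enters through the shared spread (21.1% of all). It was 1 without wild-type replicate 1 (7.16%) or myr-Set-β replicate 3 (17.6%).

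The second comparison asks the same of myr-Set-β. Again 34 of 35 clusters had a lower mean than in mCherry, with Vamp1 the exception, against 63.9% of all clusters and 74.5% of those with 1 symbol. Cplx1 is among the 34 here too. None passed limma's adjusted p of 0.05 (0% of all clusters). At an unadjusted p under 0.05 there were 3 lower clusters, Gphn, Nlgn1 and Nsf, against 6.92% of all clusters, and 0 higher, against 2.87%. The groups did not overlap in 4 of 35 (Gphn, Nlgn1, Nsf and Syn2), all lower, against 6.85% of all clusters and 8.02% of those with 1 symbol, and in 0 on the higher side, against 4.55%. The median difference was -0.48, from -0.90 to 0.15, beside -0.16 for all clusters and -0.26 for those with 1 symbol. It became -0.21 without mCherry replicate 1, beside -0.12 for all clusters, and -0.04 with replicate 1 left out of all groups, beside -0.05 for all clusters. In that fit 25 of 35 were lower, against 59.9% of all clusters, and 0 reached an unadjusted p under 0.05, against 2.69% of all. The shift of the synaptic clusters in myr-Set-β thus rested on the replicate 1 arrays. The count at an unadjusted p under 0.05 was 16 without myr-Set-β replicate 3, where 33.5% of all clusters were called in either direction. It was 11 without mCherry replicate 2 (14.9% of all), and 2 without mCherry replicate 1 (4.04%) or without myr-Set-β replicate 1 (3.5%).

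A fit with array weights, which lets noisier arrays count less, called 13 synaptic clusters lower in myr-Set-β at an adjusted p under 0.05 (37.1%), beside 23.3% of all clusters called lower and 32.2% called in either direction. They were Snap25, Cplx1, Nsf, Napb, Snap91, Rims1, Rims2, Nlgn1, Nlgn2, Nlgn3, Nrxn2, Shank2 and Gphn. Of these, Cplx1 passed the level filter through mCherry only, and Napb had a myr-Set-β mean below the filter. The estimated weight was 165.006 for myr-Set-β replicate 2 and 0.151 to 1.685 for the other arrays, and the estimation stopped before it converged, so that this fit set nearly 1 array against the control. Both comparisons share the mCherry arrays, so that their likeness is in part that of the control.

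**Figure D3:**
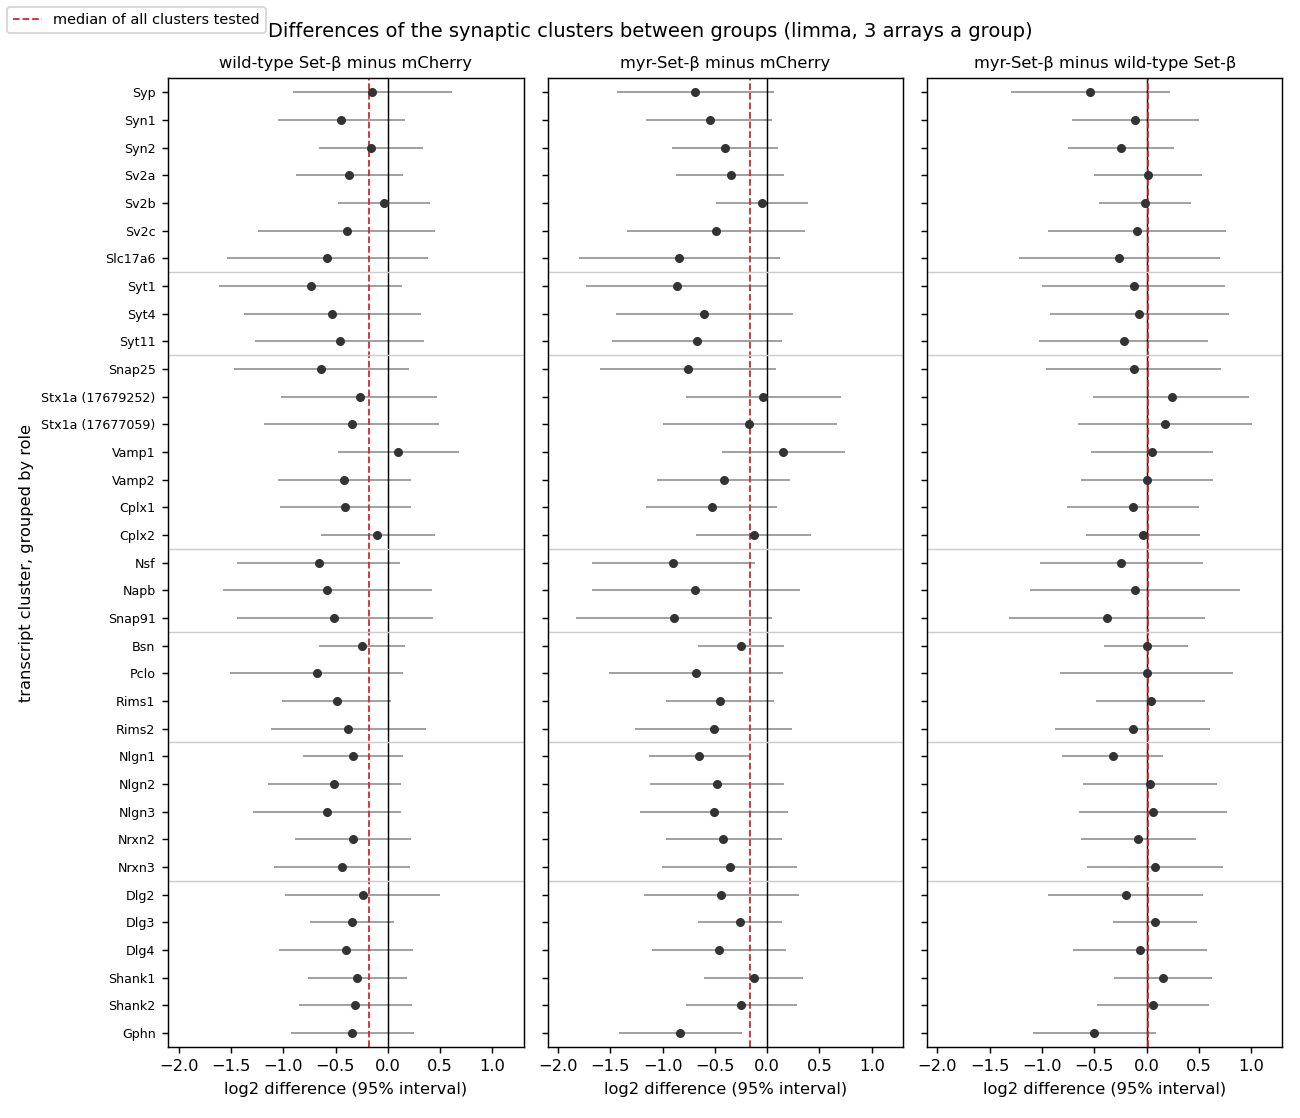
Log2 difference of each synaptic cluster (points) with its 95% interval from limma in the 3 comparisons, 3 arrays a group. The dashed line is the median of all clusters tested, at -0.18, -0.16 and 0.01. Intervals exclude 0 only for Nsf, Nlgn1 and Gphn in myr-Set-β against mCherry, before any adjustment for multiple tests.

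The size of the difference from mCherry also moved with signal level across the whole array, and the synaptic genes cover all of its range. Among tested clusters with 1 symbol, the median difference went from -0.03 in the dimmest decile to -0.55 in the brightest in wild-type Set-β, and from -0.01 to -0.61 in myr-Set-β. Set against the median of their own decile of these clusters, 17 of 35 synaptic clusters were lower in wild-type Set-β (48.6%) and 25 in myr-Set-β (71.4%), where 50% is fixed by construction. Against deciles of all clusters, including those with no gene symbol, the counts were 27 and 29. The choice of background therefore changes the reading for wild-type Set-β. Quantile normalization, which gives all arrays the same spread, moved the median of all clusters to -0.03 in both comparisons. The synaptic medians were then -0.16 in wild-type and -0.26 in myr-Set-β, with 28 and 30 of 35 lower.

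**Figure D4:**
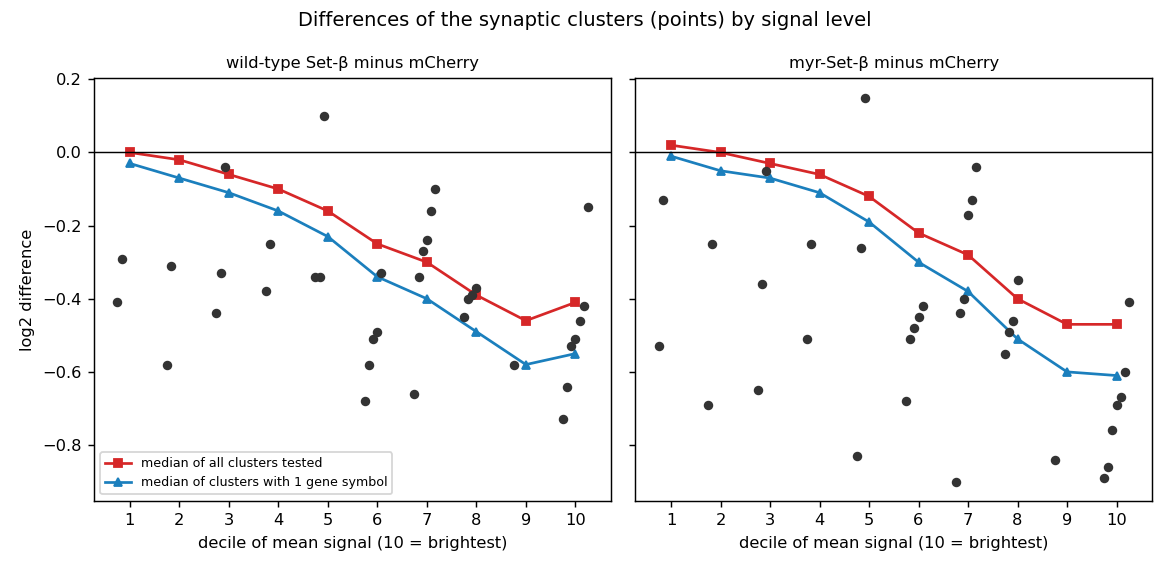
Log2 difference from mCherry (vertical axis) of the 35 synaptic clusters (points) by decile of mean signal (horizontal axis, 10 the brightest), with the decile medians of all clusters tested and of those with 1 gene symbol. From the dimmest to the brightest decile, medians of clusters with 1 symbol run from -0.03 to -0.55 in wild-type Set-β and from -0.01 to -0.61 in myr-Set-β.

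Among the 7 genes of the vesicle membrane and its coat, the difference from mCherry ran from -0.58 to -0.04 in wild-type Set-β (median -0.37) and from -0.84 to -0.05 in myr-Set-β (median -0.49). Synaptophysin, Syp, an abundant vesicle membrane protein, had 10.46, 9.58 and 9.45 in mCherry, 9.85, 9.77 and 9.44 in wild-type Set-β, and 8.55, 9.38 and 9.51 in myr-Set-β, in the order of replicates 1, 2 and 3. It was high in mCherry replicate 1 and low in myr-Set-β replicate 1, and the other 7 arrays lay between 9.38 and 9.85. Its difference between the forms of Set-β, -0.54 ± 0.33 (SE), had a limma adjusted p of 1. The vesicular glutamate transporter Slc17a6, which loads glutamate in ganglion cells, had 9.97, 8.96 and 9.15, 9.09, 9.17 and 8.08, and 7.82, 8.70 and 9.05. Its lowest arrays were wild-type replicate 3 and myr-Set-β replicate 1, and the groups overlapped.

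The synapsins tether vesicles to actin. Syn1 had 9.11, 8.52 and 8.58 in mCherry, 8.42, 8.42 and 8.03 in wild-type Set-β and 7.71, 8.26 and 8.58 in myr-Set-β. All wild-type arrays were below all mCherry arrays (difference -0.45 ± 0.27, limma adjusted p = 0.449), while myr-Set-β reached the mCherry values in replicate 3 (-0.55 ± 0.27, adjusted p = 0.447). The latter was -0.32 without myr-Set-β replicate 1 and -0.13 with replicate 1 left out of all groups. Syn2 had 8.61, 7.90 and 7.98, 8.13, 8.14 and 7.74, and 7.78, 7.80 and 7.70. Here the 3 myr-Set-β arrays lay together below mCherry, with a difference between the Set-β forms of -0.24 ± 0.22. The glycoproteins Sv2a, Sv2b and Sv2c, vesicle proteins of the transporter fold, had means of 8.59, 7.14 and 8.66 in mCherry. Sv2a did not overlap between wild-type Set-β and mCherry (-0.37 ± 0.23). For Sv2b the difference was -0.04 ± 0.19 in wild-type and -0.05 ± 0.19 in myr-Set-β, and mCherry replicate 1, with 6.95, was the lowest mCherry array rather than the highest.

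Synaptotagmins were 3 tested clusters, all with lower means in both Set-β groups, by -0.73 to -0.46 in wild-type and -0.86 to -0.60 in myr-Set-β. Syt1, the calcium sensor of fast release, had 11.04, 10.05 and 10.49 in mCherry, 10.17, 9.99 and 9.22 in wild-type Set-β, and 8.99, 9.86 and 10.15 in myr-Set-β. Its groups overlapped, since mCherry replicate 2 lay below the highest array of both Set-β groups. The difference was -0.73 ± 0.38 in wild-type and -0.86 ± 0.38 in myr-Set-β, with a limma adjusted p of 0.447 in each. In wild-type it was -0.48 without mCherry replicate 1 and -0.45 without wild-type replicate 3, and in myr-Set-β -0.52 without its replicate 1 and -0.26 with replicate 1 left out of all groups. Syt4, a relative that binds calcium poorly, had 11.57, 10.38 and 10.62, 10.88, 10.29 and 9.81, and 9.85, 10.35 and 10.58. Its differences were -0.53 ± 0.38 and -0.60 ± 0.38 (adjusted p 0.477 and 0.453). They were -0.18 and -0.24 without mCherry replicate 1, -0.27 in wild-type without its replicate 3 and -0.81 without its replicate 1, and -0.39 in myr-Set-β without its replicate 1 and -0.04 with replicate 1 left out of all groups. The difference was -0.07 between the Set-β forms, with an interval from -0.92 to 0.79. Syt11 had means of 10.01 ± 0.60 (SD, n = 3), 9.55 ± 0.14 and 9.34 ± 0.58. Syt2, the sensor of fast hindbrain and spinal synapses, stayed at 5.95 to 6.63 on all arrays, below the level filter, and below the 75th percentile of odorant receptors on 6 of them.

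Of 7 SNARE and complexin clusters, 6 had lower means in each Set-β group. The plasma membrane SNARE Snap25 had 11.84, 10.86 and 11.16 in mCherry, 11.22, 10.63 and 10.10 in wild-type Set-β, and 10.08, 10.50 and 11.00 in myr-Set-β. Its differences from mCherry were -0.64 ± 0.37 and -0.76 ± 0.37, with a limma adjusted p of 0.449 and 0.447. They were -0.36 and -0.48 without mCherry replicate 1, -0.36 in wild-type without its replicate 3, and -0.26 in myr-Set-β with replicate 1 left out of all groups. Replicate 1 was the highest in wild-type and the lowest in myr-Set-β. Vamp2, the vesicle SNARE of most central synapses, had 10.77, 10.01 and 10.16, 10.06, 9.79 and 9.83, and 9.41, 9.93 and 10.35. Its mean was 9.90 in both Set-β groups, with an interval of the difference from -0.63 to 0.64, and the differences from mCherry were -0.42 ± 0.28 and -0.41 ± 0.28 (limma adjusted p 0.468 in both). In myr-Set-β the sign turned with cyclic loess normalization, at 0.05, and with replicate 1 left out of all groups, at 0.06. Without mCherry replicate 1 both differences were -0.19, and in myr-Set-β the value was -0.17 without its replicate 1 and -0.64 without its replicate 3.

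Vamp1, the vesicle SNARE related to Vamp2, was the one gene with higher means, 7.40 ± 0.33 (SD, n = 3) in wild-type Set-β and 7.45 ± 0.37 in myr-Set-β against 7.30 ± 0.28 in mCherry. These differences of 0.10 ± 0.26 (SE) and 0.15 ± 0.26 were within the spread, the latter was -0.24 with array weights, and its highest array was myr-Set-β replicate 1, at 7.79. Stx1a, the syntaxin of the presynaptic membrane, was read by 2 clusters that followed each other. Cluster 17679252 had 8.79, 7.52 and 7.85 in mCherry, 7.84, 7.69 and 7.81 in wild-type Set-β, and 8.37, 7.61 and 8.08 in myr-Set-β. Cluster 17677059 had 8.89, 7.46 and 7.77, 7.80, 7.50 and 7.79, and 8.12, 7.37 and 8.13. In both, myr-Set-β replicate 1 was among the high arrays, unlike Snap25 and Vamp2. The differences from mCherry were -0.27 ± 0.33 and -0.34 ± 0.37 in wild-type and -0.04 ± 0.33 and -0.17 ± 0.37 in myr-Set-β (adjusted p 0.601 to 0.959). All 4 turned positive without mCherry replicate 1, at 0.10, 0.08, 0.33 and 0.26, and those of myr-Set-β also with quantile normalization, at 0.24 and 0.08.

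Complexins clamp and then speed the zippered SNARE complex. Cplx1 had 7.40, 6.63 and 6.90 in mCherry, 6.56, 6.59 and 6.57 in wild-type Set-β, and 6.11, 6.22 and 7.00 in myr-Set-β. The wild-type arrays varied by an SD of 0.02 and all lay below mCherry, with a difference of -0.41 ± 0.28, and that of myr-Set-β was -0.53 ± 0.28. With Set-β means of 6.57 and 6.45, Cplx1 passed the level filter at 6.65 through mCherry only. These lower values are therefore no support for a change. Cplx2, in contrast, had -0.10 ± 0.24 and -0.13 ± 0.24, with its highest array in wild-type replicate 1, at 8.47. The latter was 0.07 with replicate 1 left out of all groups.

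The 3 genes of SNARE disassembly and vesicle retrieval had the lowest median of all roles, -0.58 in wild-type Set-β and -0.89 in myr-Set-β. Nsf, the ATPase that unwinds SNARE complexes, had 9.03, 8.40 and 8.33 in mCherry, 7.58, 8.03 and 8.16 in wild-type Set-β, and 6.96, 7.89 and 8.20 in myr-Set-β. All 6 Set-β arrays were below all 3 mCherry arrays. The difference was -0.66 ± 0.34 in wild-type and -0.90 ± 0.34 in myr-Set-β, with a limma adjusted p of 0.447 in each. With replicate 1 left out of all groups these were -0.27 ± 0.20 and -0.32 ± 0.20, and the latter was -0.54 without myr-Set-β replicate 1 alone. Napb, the neuronal partner of Nsf, had 8.01, 6.69 and 7.07, 6.88, 6.68 and 6.46, and 5.91, 6.32 and 7.47, with overlap between all groups. Its difference in myr-Set-β was 0.02 with replicate 1 left out of all groups.

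Snap91, or AP180, gathers clathrin when vesicle membrane is taken back. It had 10.63, 9.32 and 9.50 in mCherry, 9.51, 9.28 and 9.14 in wild-type Set-β, and 8.19, 9.02 and 9.56 in myr-Set-β, the widest span of any synaptic cluster, 2.44 over the 9 arrays. Both ends of that span were replicate 1 arrays. The differences were -0.51 ± 0.41 in wild-type (limma adjusted p = 0.514) and -0.89 ± 0.41 in myr-Set-β (adjusted p = 0.447), and the latter was -0.48 without mCherry replicate 1, -0.52 without myr-Set-β replicate 1 and -0.12 ± 0.24 with replicate 1 left out of all groups.

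Active zone genes had 4 tested clusters, with means lower by -0.68 to -0.25 in each Set-β group. Rims1, which couples vesicles to calcium channels, had 8.45, 7.92 and 7.90 in mCherry, 7.76, 7.59 and 7.44 in wild-type Set-β, and 7.31, 7.63 and 7.97 in myr-Set-β. The wild-type arrays were below every mCherry array, and the difference of -0.49 ± 0.23 had the smallest p of the synaptic clusters in this comparison (limma adjusted p = 0.447). It was -0.31 without mCherry replicate 1. In myr-Set-β the difference was -0.45 ± 0.23, with overlap. The giant scaffold Pclo had 8.93, 7.60 and 7.71, 7.59, 7.54 and 7.08, and 6.98, 7.54 and 7.69. Its mCherry mean was carried by replicate 1, without which the difference in wild-type Set-β went from -0.68 ± 0.37 to -0.26. Bsn, the partner scaffold of Pclo, had -0.25 ± 0.18 in both comparisons, and Rims2 had -0.38 ± 0.33 and -0.51 ± 0.33.

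**Figure D5:**
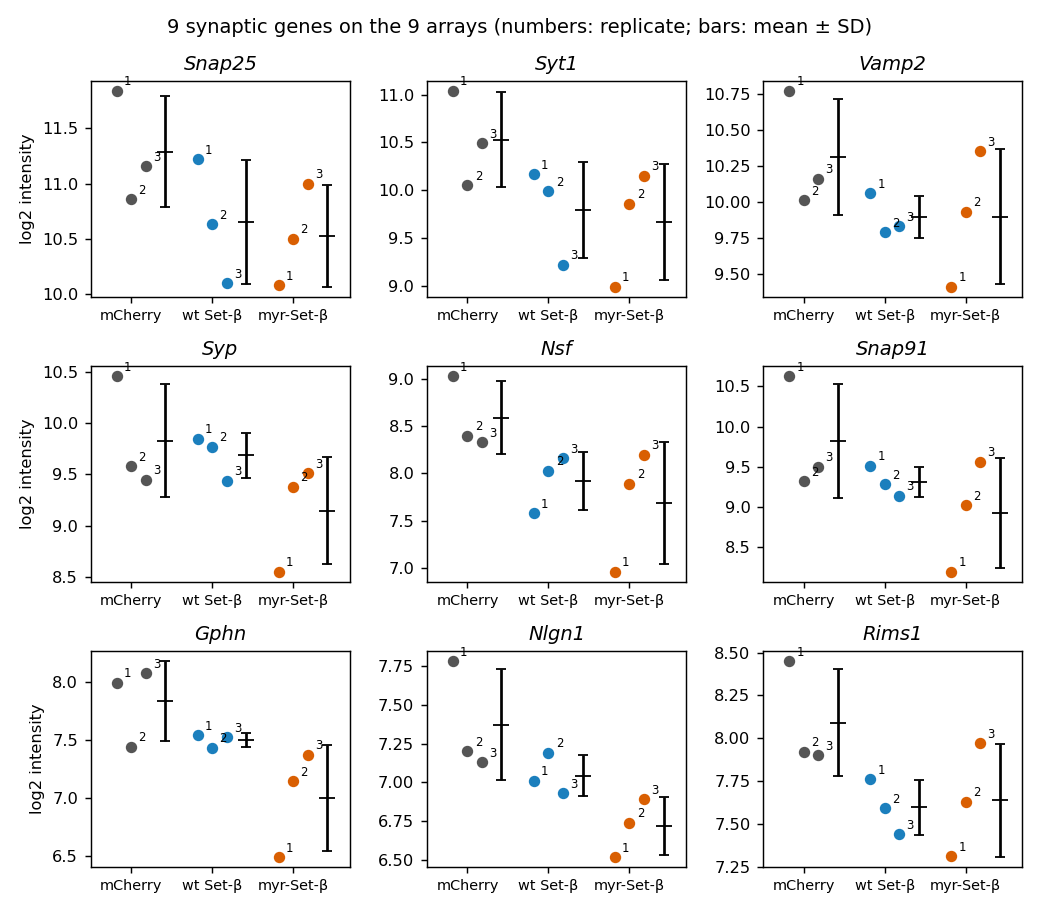
Log2 intensity of 9 synaptic genes on each array (points, numbered by replicate), with mean ± SD of the 3 arrays of each group (bars). Vertical axes differ between panels and do not start at 0. For Nsf all Set-β arrays are below the lowest mCherry array, at 8.33, and for Gphn and Nlgn1 the 3 myr-Set-β arrays are below both other groups.

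The 5 adhesion genes all had lower means than mCherry, by -0.58 to -0.33 in wild-type Set-β and -0.65 to -0.36 in myr-Set-β. Nlgn1, the neuroligin of excitatory synapses, had 7.78, 7.20 and 7.13 in mCherry, 7.01, 7.19 and 6.93 in wild-type Set-β, and 6.52, 6.74 and 6.89 in myr-Set-β. Here the myr-Set-β arrays were below those of both other groups, with -0.65 ± 0.21 from mCherry (limma adjusted p = 0.447) and -0.32 ± 0.21 from wild-type (adjusted p = 1). The first of these was -0.35 ± 0.20 with replicate 1 left out of all groups. Nlgn3, found at both kinds of synapse, had 8.57, 7.60 and 7.80, 7.40, 7.54 and 7.29, and 7.10, 7.26 and 8.05. Only its wild-type arrays did not overlap mCherry (-0.58 ± 0.31, adjusted p = 0.447), and the value without mCherry replicate 1 was -0.29.

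Nlgn2, the neuroligin of inhibitory synapses, differed by -0.51 ± 0.28 and -0.48 ± 0.28. The neurexins, presynaptic partners of neuroligins, had -0.33 ± 0.24 and -0.42 ± 0.24 for Nrxn2 and -0.44 ± 0.29 and -0.36 ± 0.29 for Nrxn3. For Nrxn3 in myr-Set-β the value was 0.12 with replicate 1 left out of all groups. The 3 wild-type arrays of Nrxn2 varied by an SD of only 0.01 around 7.71, and all were below mCherry.

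Of the 6 postsynaptic scaffold genes none had a higher mean than mCherry in either group. Gphn, the scaffold of glycine and GABA receptors, had 7.99, 7.44 and 8.07 in mCherry, 7.54, 7.43 and 7.52 in wild-type Set-β, and 6.49, 7.14 and 7.37 in myr-Set-β. Its myr-Set-β arrays were below all others, and it had the smallest p of the synaptic clusters against mCherry (-0.83 ± 0.26, limma adjusted p = 0.447) and against wild-type Set-β (-0.50 ± 0.26, adjusted p = 1). With replicate 1 left out of all groups the difference from mCherry was -0.50 ± 0.26, and without myr-Set-β replicate 1 alone it was -0.58.

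The Dlg proteins are scaffolds of glutamate receptors. Dlg3 had 7.88, 7.40 and 7.53 in mCherry, 7.35, 7.27 and 7.16 in wild-type Set-β, and 7.23, 7.32 and 7.48 in myr-Set-β, with wild-type below mCherry on all arrays (-0.34 ± 0.18, limma adjusted p = 0.447), and -0.20 without mCherry replicate 1. Dlg4, the scaffold PSD-95, differed by -0.40 ± 0.28 and -0.46 ± 0.28, and Dlg2 by -0.24 ± 0.33 and -0.44 ± 0.33. With replicate 1 left out of all groups Dlg2 had -0.02 and 0.05, and Dlg4 -0.17 and -0.01. Shank1, which lies beneath Dlg4, had 7.24, 6.75 and 6.71, 6.68, 6.78 and 6.38, and 6.88, 6.56 and 6.87, close to the brighter odorant receptors. Its difference between the Set-β forms was 0.16 ± 0.21 (adjusted p = 1). Shank2 had -0.31 ± 0.24 in wild-type, where its 3 arrays had a mean of 6.76 and all lay below mCherry, and -0.25 ± 0.24 in myr-Set-β, which was 0.03 with replicate 1 left out of all groups.

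The third comparison asks whether the membrane-tagged form differs from wild-type Set-β. In 23 of 35 clusters the mean was lower in myr-Set-β and in 12 higher, against 48.5% and 51.5% of all clusters and 46.6% lower among those with 1 symbol. None of them passed limma's adjusted p (0% of all), and 0 reached an unadjusted p under 0.05 on either side, against 0.567% of all clusters lower and 0.567% higher. The arrays did not overlap for Gphn and Nlgn1, both lower in myr-Set-β, against 1.76% of all clusters and 1.38% of those with 1 symbol, and for none on the higher side, against 2.63%. The median difference was -0.07, beside 0.01 for all clusters, with values from -0.54 for Syp to 0.24 for Stx1a cluster 17679252. Without myr-Set-β replicate 1, 8 of 35 were lower, where the median of all clusters was 0.09. Without wild-type replicate 1, 15 of 35 were lower, where that median was 0.01. With replicate 1 left out of all groups 7 of 35 were lower, against 35.5% of all clusters, whose median was 0.10. The direction of this list thus rested on those arrays, and all clusters also shifted upward in the fits without myr-Set-β replicate 1. Intervals were wide. For Snap91 the difference of -0.38 ± 0.41 had an interval from -1.32 to 0.56, and for Snap25 it ran from -0.96 to 0.71.

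A wider list held 145 other genes of vesicles, release and scaffolds, of which 126 were on the array and 99 past the level filter. In wild-type Set-β 86 of the 99 had a lower mean than mCherry (median -0.36) and in myr-Set-β 89 (median -0.42), while 62 were lower in myr-Set-β than in wild-type (median -0.04). Of all tested clusters with 1 symbol, 77.2% and 74.5% were lower than mCherry and 46.6% lower than wild-type. None passed limma's adjusted p in any comparison. At an unadjusted p under 0.05 there were 11, 17 and 0, all lower, against 7.13%, 6.92% and 0.567% of all clusters on that side. Those shares include clusters without a gene symbol, unlike the wider list, and were not computed for clusters with 1 symbol. All 21 tested genes of vesicle retrieval and SNARE disassembly had lower means in both Set-β groups, with medians of -0.54 and -0.57. Each other role in the wider list had at least 1 higher gene per group. Medians of those roles ran from -0.47 to -0.16 in wild-type and from -0.49 to -0.23 in myr-Set-β. None of these values is matched for signal level.

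Amph, an endocytic protein that binds clathrin and dynamin, had the smallest p of the wider list in wild-type Set-β, with 7.48 ± 0.14 (SD, n = 3) against 8.07 ± 0.21 in mCherry, a difference of -0.59 ± 0.17 (SE). It had 7.51 ± 0.07 in myr-Set-β (-0.55 ± 0.17). The endosomal SNARE Vamp4 had 7.74 ± 0.10 in wild-type and 7.47 ± 0.74 in myr-Set-β against 8.80 ± 0.34, by -1.06 ± 0.35 and -1.33 ± 0.35. In wild-type Set-β the next were the synuclein Sncb (-0.76 ± 0.27), the SNARE-associated Snapin (-0.81 ± 0.30) and the endocytic scaffold Itsn1 (-0.61 ± 0.24). In myr-Set-β they were the adhesion genes Cadm1 (-1.26 ± 0.38) and Cadm3 (-0.84 ± 0.26) and the vesicle chaperone Dnajc5 (-0.81 ± 0.26). All of these values had a limma adjusted p of 0.447. Between the Set-β forms the smallest p belonged to Rims3 (-0.30 ± 0.17), Cadm3 (-0.44 ± 0.26), Cadm1 (-0.64 ± 0.38), Prrt2 (-0.38 ± 0.23) and Homer2 (-0.24 ± 0.18), each with an adjusted p of 1.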

How the data were processed

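Expression was measured in 9 samples on Affymetrix Rat Gene arrays. Per the submitters' processing notes, the authors used Affymetrix Expression Console and RMA, which corrects background, normalizes and summarises probes, with versions and genome build not given in the sources used here. RNA was amplified to cDNA before labelling, per the series' design text. The deposited values are intensities on a linear scale, which the authors set to the median of each sample per the series' design text; each array's median is 100. Of 36685 clusters, a platform table gave 18511 1 symbol, 575 several and 17599 none. Values were log2-transformed and fitted with limma 3.58.1 in R 4.3.3 as 3 group means in a two-sided test (6 residual degrees of freedom, 2.82 from the prior). Clusters with a mean log2 value below 6.65, the median of all, were left out, which left 18343; marker lists (ganglion, amacrine and horizontal, photoreceptor and bipolar, glial, microglia and macrophage, endothelial with mural and fibroblast) were summed on the linear scale. Adjustment was by Benjamini-Hochberg over these 18343 clusters, with a threshold of 0.05. Precision is limited by the number of arrays. Values in full were given for the 6 synaptic clusters of smallest p per comparison, both Stx1a clusters and the 3 brightest, and for Slc17a6, Cplx1 and Napb, added after their values were seen; of the wider list the 5 genes of smallest p were named. Members and lists were chosen with earlier results of these data known. Alternatives were other normalizations, level filters, fits of 2 groups, a replicate block, array weights, the dimmer Stx1a cluster and leaving out arrays.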

Additional observations from a re-analysis of the deposited data

How the results depend on the processing

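Over 18 alternatives no synaptic cluster passed limma's adjusted p in wild-type Set-β against mCherry or between the Set-β forms, and 13 did in myr-Set-β against mCherry with array weights only. Leave-one-out ranges of the median difference were -0.56 to -0.15 in wild-type, -0.67 to -0.21 in myr-Set-β and -0.22 to 0.10 between the forms; of lower clusters 28 to 35, 30 to 35 and 8 to 30; and of clusters at an unadjusted p under 0.05, 0 to 5, 2 to 16 and 0 to 1. Beside that last count, the leave-one-out shares of all clusters were 4.8% to 21.1%, 3.5% to 33.5% and 0.992% to 4.54%. In wild-type the synaptic count was 2 with only the 2 groups compared (23.2% of all clusters) and 4 with array weights (34.2% of all). In myr-Set-β it was 1 with the level filter at the 75th percentile (9.18% of all), which leaves out some clusters and so gives them no value. It was 19 with array weights, where 47% of all clusters were called. With replicate 1 left out of all groups it was 0 (2.69% of all), and the median was -0.04. Between the forms it was 1 with quantile (1.58% of all), 1 with cyclic loess normalization (1.38%) and 6 with array weights (24.6%). There, 7 clusters were lower with replicate 1 left out of all groups, against 35.5% of all clusters. Leaving out replicate 1 of all groups, and counting lower clusters, were chosen after seeing the data. The cause of these changes was not tested.

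Among the clusters named by the rule, signs turned as follows. In wild-type against mCherry, Stx1a clusters 17679252 and 17677059 had leave-one-out ranges of -0.54 to 0.10 and -0.63 to 0.08, and 0.07 and 0.03 with replicate 1 left out of all groups. In myr-Set-β against mCherry they had 0.24 and 0.08 with quantile and 0.22 and 0.07 with cyclic loess normalization, -0.30 to 0.33 and -0.46 to 0.26 leave-one-out, and 0.16 and 0.14 with replicate 1 left out, where Vamp2 had 0.06 (0.05 with cyclic loess). Between the forms, array weights gave -0.15 and -0.27 for Stx1a, -0.09 for Shank1 and 0.05 for Syt4, cyclic loess 0.04 for Syt4 and quantile -0.02 for Vamp2. Leave-one-out ranges there were -0.40 to 0.16 for Snap25, -0.32 to 0.21 for Syt4 and -0.22 to 0.25 for Vamp2, and replicate 1 left out of all groups gave 0.39 for Snap25, 0.41 for Syt4 and 0.08 for Snap91. Against mCherry, the other members that turned with replicate 1 left out of all groups were Syp in wild-type (0.08), and Sv2c (0.18), Nrxn3 (0.12), Cplx2 (0.07), Dlg2 (0.05), Shank2 (0.03) and Napb (0.02) in myr-Set-β.

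With the replicate number as a block, the medians were -0.39, -0.48 and -0.07. An unadjusted p under 0.05 was found for 0, 3 and 0 clusters, beside 10.6%, 9.56% and 1.37% of all clusters, so that the block changed no call. Same-numbered arrays deviated together with r over 0.1 in 5 of 9 pairs (-0.07 to 0.38). In 4 of the 9 pairs this r was above those with arrays of other numbers. These counts do not meet the rule for pairing used here. The 3 replicate 1 arrays nevertheless shared low sums of the endothelial, mural and fibroblast list (1054 to 1189, against 5124 to 8408 on the others). In that list Cdh5 and Col1a1 overlapped between these arrays and the others. Whether the replicate 1 arrays share a preparation was not tested.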
